A study of Mus musculus with 8 samples.

Results

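The Id proteins and the BMP pathway were described in mouse cells that had been kept in adipogenic medium. The 10 genes used were Id1, Id2, Id3, Id4, Smad6, Smad7, Smad9, Bmp4, Bambi and Bmpr1a. They were found by matching each non-control probe of the array to a mouse symbol through its RefSeq transcript or gene name, and all matching probes were kept. This gave 11 probes of 55681, or 10 genes of 20664 named genes, with 2 probes for Bmp4 and 1 for each other gene, each printed as a single spot.

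The arrays came from a study in which 3T3-L1 cells received culture supernatant of human HL-60 cells. 3T3-L1 is a mouse embryonic fibroblast line with the capacity to become fat-like cells, and all samples had been kept in adipogenic medium for 1 week after growth in 10% fetal calf serum. HL-60 is a human leukemia line that the phorbol ester PMA drives towards a macrophage-like state. The samples address which transcripts of the 3T3-L1 cells differ with supernatant of HL-60 cells in which USP2, a ubiquitin-specific protease, was knocked down. The 4 groups were KD 3 h, control 3 h, KD 6 h and control 6 h, where KD stands for supernatant of USP2 knockdown HL-60 cells, control for supernatant of HL-60 cells that the labels call both mock-transfected and control vector-transfected, and the time for how long the 3T3-L1 cells were exposed. Both supernatants came from a 5 day culture in Opti medium with 30 nM PMA and were diluted 2-fold, so PMA-treated human cells lie behind every group, and cells without supernatant were not analysed here. The knockdown was in the human cells, so its depth cannot be read from the mouse transcripts.

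Each group held 2 one-colour arrays, 8 in all, which limits the precision. The labels call them biological replicates and do not say whether they came from separate supernatant preparations, so the p-values cover no more than the spread among these arrays, which may be technical. All 8 arrays lay on 1 slide scanned once. KD and control arrays lay in different columns of that slide, so the source of the supernatant and the position on the slide cannot be told apart. On each array 50.7% to 55.9% of 59305 non-control spots were well above background, and replicate arrays correlated across genes at 0.988 to 0.998. The lowest value was that of control 6 h. Its replicate difference had an SD of 0.527 on the log2 scale, against 0.225 to 0.394 in the other groups. The model used below shares 1 spread per gene across all groups, so this noisier group enters every p-value. Of 15 adipocyte markers, 7 exceeded the background clearly on every one of the 8 arrays, including Pparg, Fabp4 and Lpl. Another 6 did so on none, namely Adipoq, Cidec, Cd36, Slc2a4, Lep and Cfd, while Plin1 did so on 1 array and Lipe on 4. All 12 preadipocyte and fibroblast markers did so on every array. Adipocyte markers were thus present only in part, beside all listed markers of preadipocytes and fibroblasts. How far the cells had become adipocytes is not settled by these markers. In such bulk samples, fewer cells of a type and less RNA per cell cannot be told apart.

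BMPs are secreted ligands that bring together type I receptors such as Bmpr1a and type II receptors. The type I receptor phosphorylates Smad1, Smad5 or Smad9, which join Smad4 and enter the nucleus. The Id genes are among the best-known direct targets of these Smads, and TGF-beta can raise or lower them depending on the cell. Id proteins have a helix-loop-helix domain but no basic DNA-binding region, so they pair with basic helix-loop-helix factors and keep them off DNA. Smad6 and Smad7 are inhibitory Smads that act as negative feedback, and Bambi is a pseudoreceptor without a kinase domain. In fat tissue, BMP4 is known for committing precursor cells to the adipocyte lineage.

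Promoters were examined for letters bound by these Smads: the GC-rich elements GGCGCC and GGAGCC, described for the BMP Smads, and CAGAC, the Smad box. Of the 10 genes, 7 had a promoter in the RefSeq table of build GRCm38.p6, and the 250 bases before the annotated start were searched on both strands. The sequences of Id3, Id4 and Smad9 are shown because these are the genes with a called difference in either direction whose promoters the table holds. Capitals mark matches to any of the 3 motifs or their reverse complements (GGCTCC for GGAGCC and GTCTG for CAGAC, while GGCGCC is its own). The Id3 window is chr4:136143572-136143821 on the plus strand, the Id4 window chr13:48260866-48261115 on the plus strand, and the Smad9 window chr3:54755332-54755581 on the plus strand.
Id3: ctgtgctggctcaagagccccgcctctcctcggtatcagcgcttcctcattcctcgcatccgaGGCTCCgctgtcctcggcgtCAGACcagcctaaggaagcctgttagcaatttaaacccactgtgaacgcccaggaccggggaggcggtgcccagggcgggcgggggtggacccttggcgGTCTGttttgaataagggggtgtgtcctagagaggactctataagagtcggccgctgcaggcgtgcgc
Id4: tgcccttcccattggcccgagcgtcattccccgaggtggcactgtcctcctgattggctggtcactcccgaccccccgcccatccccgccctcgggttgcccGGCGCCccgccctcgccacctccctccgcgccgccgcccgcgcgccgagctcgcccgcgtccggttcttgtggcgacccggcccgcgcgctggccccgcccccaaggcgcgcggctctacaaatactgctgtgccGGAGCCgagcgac
Smad9: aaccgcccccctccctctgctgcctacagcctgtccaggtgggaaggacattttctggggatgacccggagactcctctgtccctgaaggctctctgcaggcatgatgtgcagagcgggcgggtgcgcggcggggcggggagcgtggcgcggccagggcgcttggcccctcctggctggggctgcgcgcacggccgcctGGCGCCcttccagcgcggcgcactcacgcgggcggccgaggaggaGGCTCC
The Id3 window held 1 GGAGCC element and 2 Smad boxes, while the Id4 and Smad9 windows each held 1 GGCGCC and 1 GGAGCC element and 0 Smad boxes. Among 32851 windows of the same length, 9.59% held GGCGCC, 26% held GGAGCC and 42.2% held CAGAC. The windows were rich in G and C, at 62.8% for Id3, 75.6% for Id4 and 73.2% for Smad9, against a median of 52.4% over all windows. The genes whose difference was not called held such letters too: Id2 had 1 GGCGCC and 1 GGAGCC element, Smad6 had 2 GGAGCC elements, Bmpr1a had 1 GGCGCC element and Bmp4 had 1 GGAGCC element. A match is a description of the letters and shows no binding.

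Id1, Id3 and Smad7 were the members with the largest positive differences between KD and control supernatant averaged over both times, Id4 was higher with KD supernatant at 6 h, and Smad9 was lower. Signals are given as log2 of the processed signal minus the array's 75th percentile, so 0 is the level of the 75th percentile, and differences are KD minus control on that scale with the standard error of the fit. A limma model of 4 group means was fitted to 25806 genes and unnamed probes, and a difference was called at an adjusted p under 0.05 (Benjamini-Hochberg over all of them). Of the 10 genes, 9 passed the filter on dim probes and were tested, and Bambi did not. At 3 h, 2 genes were called higher and 0 lower, against 0.225% of all features called higher and 0.0233% called lower. At 6 h, 4 were called higher and 1 lower, against 1.52% higher and 0.701% lower. Averaged over both times the same split of 4 higher and 1 lower was found, against 2.1% and 0.957% of all features. The median difference over the 9 tested genes was 0.28 at 3 h, 0.39 at 6 h and 0.33 averaged, against medians of -0.018, -0.0094 and -0.017 over all features. The members were chosen with earlier results of these data known, so these counts and medians are a description and no independent test of the set.

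**Figure D1:**
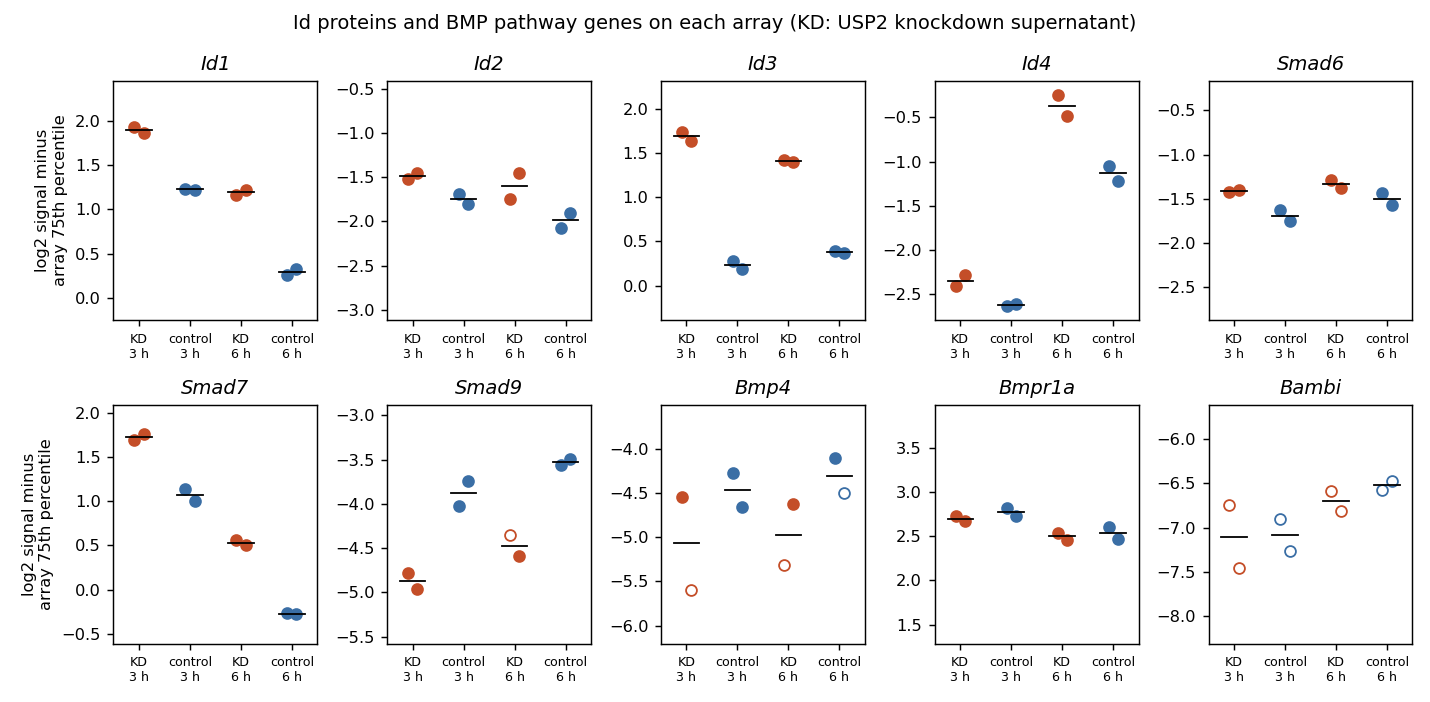
Log2 signal relative to the array's 75th percentile (y axis) of the 10 genes on the 8 arrays, by group on the x axis with KD left of control at each time. Each panel has its own range of equal length, dots are single arrays, bars are group means and open circles are spots not well above background. Id3 lies between 1.40 and 1.74 on the 4 KD arrays and between 0.19 and 0.40 on the 4 control arrays, while every Bambi spot is an open circle.

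Id3 differed most among the Id genes. Its log2 signal was 1.74 and 1.64 on the KD 3 h arrays, against 0.28 and 0.19 on the control 3 h arrays. After 6 h the KD arrays had 1.42 and 1.40, against 0.40 and 0.37 on the control arrays. All 4 KD arrays lay above all 4 control arrays. At 3 h Id3 rose with KD supernatant by 1.45 ± 0.068 (SE, 2 arrays per group; limma adjusted p = 0.0119), a 2.74-fold difference. At 6 h it rose by 1.03 ± 0.068 (limma adjusted p = 0.00677), or 2.04-fold. Averaged over both times the difference was 1.24 ± 0.048 (limma adjusted p = 0.00136). Only 11 of 25806 features had a larger positive difference at 3 h, and 299 had one at 6 h. The order of the group means was KD 3 h, KD 6 h, control 6 h and control 3 h. The gap between the last 2 of these was 0.15 with a standard error of 0.068, and that pair was not called.

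Id1 is an Id gene commonly used as a readout of BMP signalling. Its log2 signal was 1.94 and 1.86 on the KD 3 h arrays, against 1.23 and 1.22 on the control 3 h arrays. At 6 h the KD arrays had 1.16 and 1.22 and the control arrays had 0.26 and 0.33. Within each time the groups did not overlap, but the KD arrays at 6 h lay at the level of the control arrays at 3 h. Id1 rose with KD supernatant by 0.67 ± 0.063 at 3 h (limma adjusted p = 0.0364), or 1.60-fold. It rose by 0.89 ± 0.063 at 6 h (limma adjusted p = 0.00759), or 1.86-fold. The averaged difference was 0.78 ± 0.045 (limma adjusted p = 0.00308). In the order KD 3 h, control 3 h, KD 6 h and control 6 h, the second and the third means differed by 0.033, which is less than the standard error of 0.063.

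Id4, an Id protein also known from the developing nervous system, had a higher signal on every array at 6 h than at 3 h. At 6 h its log2 signal was -0.25 and -0.49 on the KD arrays, against -1.04 and -1.22 on the control arrays. At 3 h the KD arrays had -2.41 and -2.28, against -2.63 and -2.61 on the control arrays. The groups did not overlap at either time. The difference of 0.76 ± 0.11 at 6 h was called (limma adjusted p = 0.0336; 1.70-fold), and that of 0.28 ± 0.11 at 3 h was not (limma adjusted p = 0.463). The averaged difference of 0.52 ± 0.077 was called (limma adjusted p = 0.0311).

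Id2 is an Id protein that has been linked to fat cell differentiation. Its log2 signal was -1.52 and -1.46 on the KD 3 h arrays, against -1.69 and -1.80 on the control 3 h arrays. Its 6 h signal was -1.74 and -1.45 on the KD arrays, against -2.08 and -1.90 on the control arrays. The KD arrays were higher within each time, but one of the KD 6 h arrays lay at the level of the 3 h controls. Neither the difference of 0.26 ± 0.12 at 3 h (limma adjusted p = 0.539) nor that of 0.39 ± 0.12 at 6 h (limma adjusted p = 0.175) was called, and the averaged difference was 0.33 ± 0.085 (limma adjusted p = 0.118).

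Of the inhibitory Smads, Smad7 was called and Smad6 was not. Smad7 blocks type I receptors of both the BMP and the TGF-beta branch. Its log2 signal was 1.69 and 1.75 on the KD 3 h arrays, against 1.14 and 1.00 on the control 3 h arrays. The 6 h signal was 0.56 and 0.50 on the KD arrays, against -0.27 and -0.28 on the control arrays. The groups were apart within each time, and all 4 group means stood apart from their neighbours by at least 0.54, with a standard error of 0.072. The difference was 0.80 ± 0.072 at 6 h (limma adjusted p = 0.0112; 1.74-fold) and 0.66 ± 0.072 at 3 h, where it missed the threshold (limma adjusted p = 0.0505). Averaged, Smad7 rose by 0.73 ± 0.051 (limma adjusted p = 0.00470).

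Smad6, which acts mainly on the BMP branch, had log2 signals of -1.43 and -1.40 on the KD 3 h arrays, against -1.63 and -1.75 on the control 3 h arrays. Its signal after 6 h was -1.29 and -1.38 on the KD arrays, against -1.44 and -1.57 on the control arrays. The KD arrays lay above the control arrays at each time, by a small margin at 6 h. The differences of 0.28 ± 0.081 at 3 h (limma adjusted p = 0.318), 0.17 ± 0.081 at 6 h (limma adjusted p = 0.322) and 0.22 ± 0.057 averaged (limma adjusted p = 0.114) were not called.

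Smad9, a receptor-activated Smad of the BMP branch, was the 1 gene called lower. Its signal was dim. It was -4.78 and -4.97 on the KD 3 h arrays, against -4.03 and -3.74 on the control 3 h arrays, on the log2 scale. At 6 h it was -4.35 and -4.59 on the KD arrays, against -3.57 and -3.50 on the control arrays, and the first of the KD 6 h spots was not well above background. All KD arrays lay below all control arrays. Smad9 fell by 0.94 ± 0.14 at 6 h (limma adjusted p = 0.0345) and by 0.97 ± 0.098 averaged (limma adjusted p = 0.0100). The difference of -0.99 ± 0.14 at 3 h was not called (limma adjusted p = 0.0752). With a normexp background correction, which also adds an offset of 50 to every spot, the difference was -0.37 at 6 h and -0.31 averaged. Such an offset by itself shrinks the differences of dim spots, so these values cannot show how far the size depends on the background.

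The ligand and the receptors gave no call. Bmp4, the ligand among the members, was near background. The brighter of its 2 probes read -4.54 and -5.60 on the KD 3 h arrays, against -4.28 and -4.66 on the control 3 h arrays. The same probe at 6 h read -5.32 and -4.63 on the KD arrays, against -4.11 and -4.50 on the control arrays. Of these 8 spots, 1 at KD 3 h, 1 at KD 6 h and 1 at control 6 h were not well above background, and arrays of the 2 groups overlapped at 3 h. The differences were -0.60 ± 0.41 at 3 h (limma adjusted p = 0.710) and -0.67 ± 0.41 at 6 h (limma adjusted p = 0.418). The other Bmp4 probe was above background on 1 array and was not tested.

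Bmpr1a, the type I receptor, was bright, at 2.73 and 2.67 on the KD 3 h arrays, against 2.82 and 2.73 on the control 3 h arrays. At 6 h it was 2.54 and 2.46 on the KD arrays, against 2.60 and 2.47 on the control arrays. The arrays of the 2 supernatants lay close together, and their differences of -0.074 ± 0.077 at 3 h (limma adjusted p = 0.842) and -0.039 ± 0.077 at 6 h (limma adjusted p = 0.805) were no larger than their standard errors. Bambi did not exceed the background clearly on a single array of the 8, so no direction can be given for it.

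**Figure D2:**
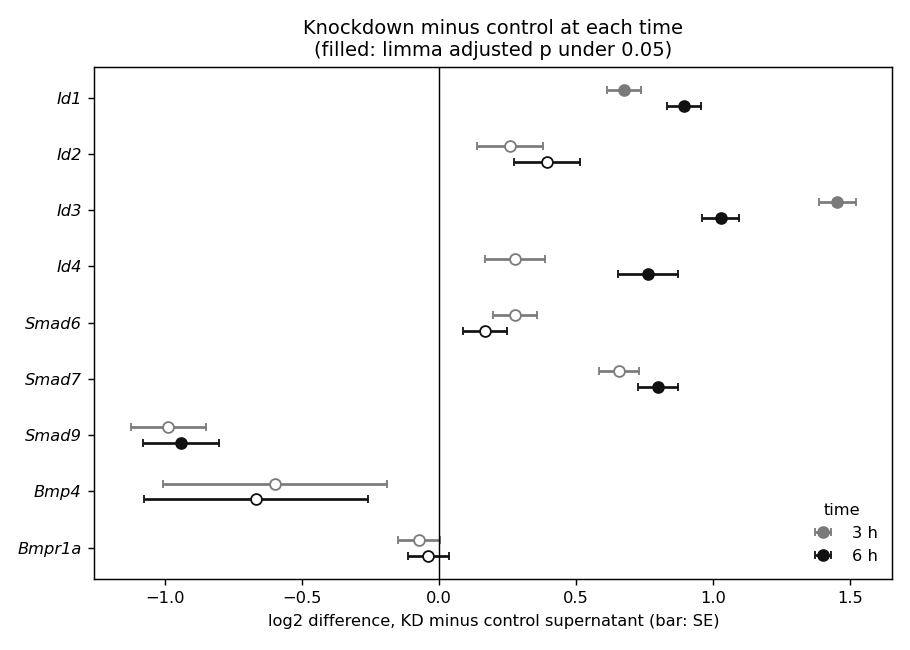
KD minus control log2 difference (x axis) of the 9 tested genes (rows) at 3 h in grey and at 6 h in black, with bars of 1 standard error of the limma fit and filled dots for an adjusted p under 0.05. Id3 stands at 1.45 at 3 h and 1.03 at 6 h, Id1, Id4 and Smad7 lie between 0.28 and 0.89 at single times, and Smad9 lies at -0.99 and -0.94.

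Counted by arrays alone, 6 of the 9 tested genes had both KD arrays above both control arrays at 3 h and 2 had both below, against 20.2% and 26.9% of all features. At 6 h the counts were 6 and 2, against 24.7% and 22.9% of all features. The 6 genes above were Id1, Id2, Id3, Id4, Smad6 and Smad7 at each time. Smad9 was below at each time, with Bmpr1a at 3 h, by a narrow margin, and Bmp4 at 6 h.

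The calls at a single time depended on which arrays were fitted and on the processing. At 3 h, the 2 calls became 1 without control 6 h replicate 1 or 2, where Id3 passed, and 0 without any other single array, with limma adjusted p up to 0.192 for Id3 and 0.292 for Id1. At 6 h, Id1 and Id3 passed in all 8 fits that left out 1 array, and Smad7 in 7, missing without KD 6 h replicate 1 (limma adjusted p = 0.0694). The 5 calls at 6 h became 2 without KD 6 h replicate 1, and 3 without KD 6 h replicate 2 or any single 3 h array, with Id4 passing in 2 of the 8 fits and Smad9 in 0. Averaged over both times, Id1, Id3 and Smad7 passed in all 8 such fits, Smad9 in 6 and Id4 in 3, so 3 calls were left without KD 3 h replicate 1 or 2. No member passed at 3 h or at 6 h without scaling, without the filter on dim probes, or with the arrays of that time fitted alone.

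The effect of the supernatant was not called different between the times for any member, or for any of the 25806 features (0%), where 2224 had an unadjusted p under 0.05. The smallest unadjusted p among the members belonged to Id3, whose difference was smaller at 6 h than at 3 h, with a change of -0.43 ± 0.097 (limma adjusted p = 0.425). Id4 ran the other way, with 0.49 ± 0.15 (limma adjusted p = 0.525). For Id1 the change was 0.22 ± 0.090 (limma adjusted p = 0.581). A difference called at 6 h and not at 3 h, as for Id4, Smad7 and Smad9, is thus not shown to differ between the times.

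Between 6 h and 3 h the members moved in different directions. With KD supernatant, 1 gene rose and 3 fell, against 17.5% and 22.6% of all features, and with control supernatant 1 rose and 2 fell, against 16.3% and 23.4%. The shares over all features are large, so these counts say little about the members as a group. Id4 was higher at 6 h than at 3 h by 1.98 with KD supernatant (limma adjusted p = 0.000183; 3.93-fold) and by 1.49 with control supernatant (limma adjusted p = 0.000336; 2.81-fold). Smad7 fell by 1.20 with KD supernatant (limma adjusted p = 0.000221) and by 1.34 with control supernatant (limma adjusted p = 0.000163). Id1 fell by 0.71 with KD supernatant (limma adjusted p = 0.000654) and by 0.93 with control supernatant (limma adjusted p = 0.000281). Id3 fell by 0.28 with KD supernatant (limma adjusted p = 0.0225), while its difference of 0.15 with control supernatant was not called (limma adjusted p = 0.144) and turned to -0.044 when arrays were scaled by their medians. Among the Id genes, Id1 was thus lower at 6 h and Id4 higher at 6 h, and Id3 changed less with time than with supernatant. Id2, Smad6, Smad9, Bmp4 and Bmpr1a gave no call over time with either supernatant.

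The rest of the pathway was read from 6 lists drawn up for the pathway, none of which holds a member. The lists were chosen with earlier results of these data known. Beside their counts, the shares of all features called higher and lower were 0.225% and 0.0233% at 3 h. These shares were 1.52% and 0.701% at 6 h, and 2.1% and 0.957% in the average. Of 13 BMP ligands, 3 were tested and 0 passed in any KD comparison. Most of the others, among them Bmp6, Bmp7 and Gdf2, stayed at background on every array. The 3 tested, Gdf5, Bmp1 and Bmp8a, had averaged differences of -0.12, 0.02 and 0.02. Bmp1 is a metalloprotease and not a receptor ligand, although it carries the name.

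Of 18 BMP antagonists and modulators, 15 were tested and 0 were called lower in the KD comparisons. Grem1, a secreted BMP antagonist (0.45; limma adjusted p = 0.111), the co-receptor Rgmb (0.88; limma adjusted p = 0.134) and Rgma (-0.17) were not called in the average.

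Of 6 BMP receptors, 5 were tested and 1 was called higher in the average, the type I receptor Acvr1. Its averaged difference was 0.26 ± 0.044 (limma adjusted p = 0.0475), and it was called at neither time alone. Without any single 3 h array or either KD 6 h array it did not pass (limma adjusted p up to 0.181). The type II receptors Acvr2a, Acvr2b and Bmpr2 had averaged differences of -0.32, 0.15 and 0.08 and were not called.

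Of 13 Smads and Smad regulators, all were tested. At 3 h 1 was called higher, at 6 h 3 and in the average 4, against 0.225%, 1.52% and 2.1% of all features. In each of these comparisons 0 were called lower. The called genes were Tgif1, Skil and Pmepa1, and in the average also Smad1. The median difference of the list was 0.15 in the average, against -0.017 over all features. Tgif1, a repressor that binds Smads, differed by 0.70 ± 0.046 (limma adjusted p = 0.00389). Pmepa1, a membrane protein that restrains TGF-beta signalling, differed by 0.64 ± 0.043 (limma adjusted p = 0.00433). Skil, a corepressor of the Smads known as a feedback gene of TGF-beta, differed by 0.60 ± 0.052 (limma adjusted p = 0.00741). Smad1, a receptor-activated Smad of the BMP branch, differed by 0.47 ± 0.080 (limma adjusted p = 0.0466). For Tgif1 the log2 signal at 6 h was 4.51 and 4.60 on the KD arrays, against 3.86 and 3.81 on the control arrays, and for Pmepa1 it was 2.80 and 2.84 on the KD arrays, against 1.93 and 1.98 on the control arrays. These groups did not overlap. Smurf2, a ubiquitin ligase for Smads and their receptors, and Smad3 and Smad2, the Smads of the TGF-beta branch, had averaged differences of 0.28, 0.15 and 0.12 and were not called. When 1 array was left out, Tgif1 and Pmepa1 passed in the average in all 8 fits, Skil in 7 (lost without KD 3 h replicate 1; limma adjusted p = 0.0546), and Smad1 in 1, without KD 6 h replicate 2. The 3 h call of Tgif1 was lost in all 8, its 6 h call without KD 6 h replicate 1, and the 6 h call of Skil without any 3 h array or either KD 6 h array (limma adjusted p up to 0.0872).

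Of 14 genes listed as other BMP targets, 9 were tested, and 1 was called lower at 6 h and in the average. It was Zfp423, a zinc finger factor known from preadipocyte commitment. Its place in the list does not show that it is a BMP target in these cells. Its log2 signal at 6 h was -1.25 and -1.19 on the KD arrays, against -0.19 and -0.38 on the control arrays, with no overlap. The difference was -0.93 ± 0.094 at 6 h (limma adjusted p = 0.0141) and -0.22 at 3 h (limma adjusted p = 0.50). The 6 h call was lost without KD 3 h replicate 1 or 2 or KD 6 h replicate 1 or 2 (limma adjusted p up to 0.0834). The averaged call passed only without KD 6 h replicate 2 or either control 6 h array. Hes1 (0.43; limma adjusted p = 0.0959), Hey1 (0.27) and Runx2 (0.38) were not called in the average. Of 14 helix-loop-helix partners of the Id proteins, 9 were tested and 0 passed at either time or in the average, where the median difference was -0.037. Bhlhe40 (0.25; limma adjusted p = 0.0926), Tcf12 (-0.18) and Bhlhe41 (-0.17) had the smallest p-values among them.

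**Figure D3:**
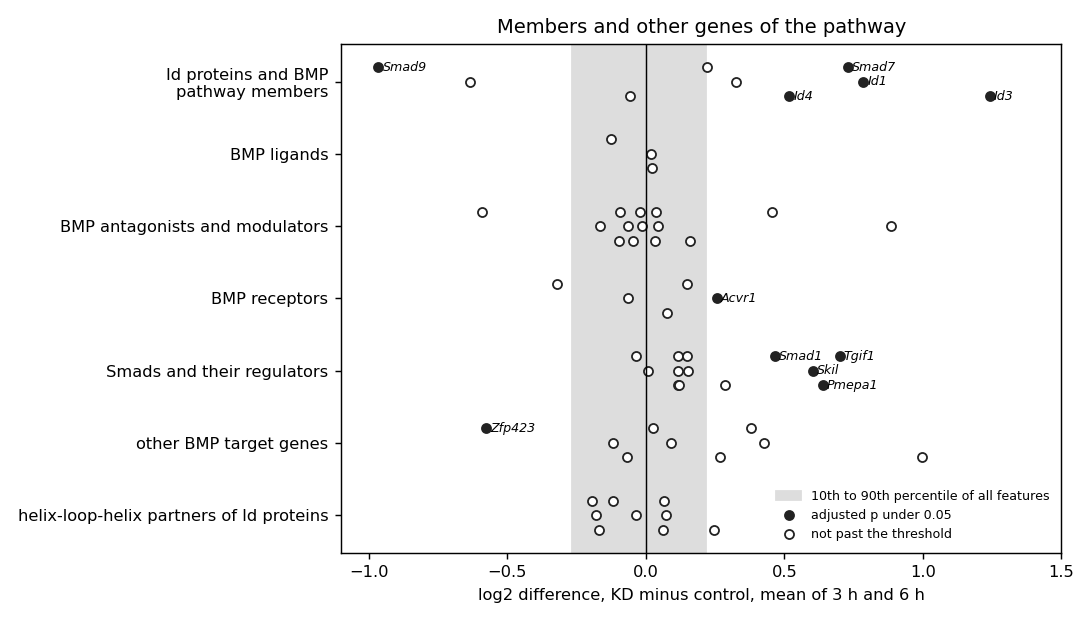
KD minus control log2 difference averaged over 3 h and 6 h (x axis) for the tested members and the genes of 6 pathway lists that were tested and are reported (rows). Filled dots are called at a limma adjusted p under 0.05, open dots are not, and the grey band spans percentiles 10 to 90 of all features, -0.27 to 0.22. The called genes run from Smad9 at -0.97 to Id3 at 1.24, and no ligand and no helix-loop-helix partner has a filled dot.

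Tested markers numbered 8 for adipocytes, 12 for preadipocytes and fibroblasts, and 5 for macrophages and leukocytes. There were 3 for endothelium, 3 for osteoblasts and chondrocytes, and 4 for smooth muscle and muscle. Among all these markers, 2 genes from different lists were called between the supernatants at a single time or in the average. Of all features, 2.1% were called higher and 0.957% lower in the average, and 1.52% and 0.701% at 6 h. Plin4, a lipid droplet protein from the adipocyte list, was lower with KD supernatant by -0.69 ± 0.083 at 6 h (limma adjusted p = 0.0223) and -0.54 ± 0.059 in the average (limma adjusted p = 0.0127), and Cd14, a monocyte marker, was higher in the average by 0.47 ± 0.057 (limma adjusted p = 0.0168). Uncalled differences of other markers, picked after their values were seen, reached a like size with larger errors. They were 0.74 ± 0.21 for Col2a1 (limma adjusted p = 0.157) and -0.72 ± 0.29 for Cnn1 (limma adjusted p = 0.258) at 6 h, genes of cartilage and smooth muscle. The lipase gene Lipe differed by -0.73 ± 0.25 at 3 h (limma adjusted p = 0.385), and the lysozyme gene Lyz2 by -0.56 ± 0.16 at 6 h (limma adjusted p = 0.155). Lyz2 was above background on all 8 arrays. Col2a1 and Lipe were so on only 4 of the 8 and Cnn1 on 3, so their differences rest in part on spots near background. Of the 7 macrophage and leukocyte markers on the array, 5 were above background on all 8 arrays, but the defining Ptprc and Adgre1 on none. The summed signal of that list, relative to the 75th percentile, was 53.6 to 55.4 on KD 3 h arrays against 43.0 to 45.2 on control 3 h arrays, and 38.8 to 41.5 on KD 6 h arrays against 38.2 to 43.8 on control 6 h arrays. Most of that sum came from Itgam. Its log2 signal was 5.56 and 5.62 on the KD 3 h arrays, against 5.28 and 5.22 on the control 3 h arrays. The Itgam difference of 0.34 ± 0.088 at 3 h was not called (limma adjusted p = 0.26). Over the 5 tested genes of that list the median difference at 3 h was -0.060, so the sum shows no rise across the list. The part of these markers in the members' differences was not tested.

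Genes whose pattern was most like that of Id3 or Id1 were found by the root mean square difference over the 8 arrays after each gene's mean was subtracted, among 12567 named genes well above background on all arrays. For Id3 these included Zfp36, a factor that promotes mRNA decay (0.155), Inhba, the activin A subunit (0.159), Cebpd, an early adipogenic transcription factor (0.168), and Il1rl1, the IL-33 receptor (0.202), against a median of 0.669 over all genes compared. Each of these 4 was higher on every KD array than on every control array after centring, as the choice by likeness to Id3 favours. For Id1 they were the immediate early gene Ier2 (0.0584), the matrix protein gene Thbs1 (0.0872), the growth factor gene Pdgfa (0.116), the forkhead factor gene Foxs1 (0.117) and Frmd4a (0.118), against a median of 0.570. The genes like Id1 shared its low level at control 6 h, whereas those like Id3 followed the supernatant more than the time. The genes were picked on these same 8 arrays, so such shared patterns follow from the choice and are no separate result. Likeness is a description of these 8 arrays.

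**Figure D4:**
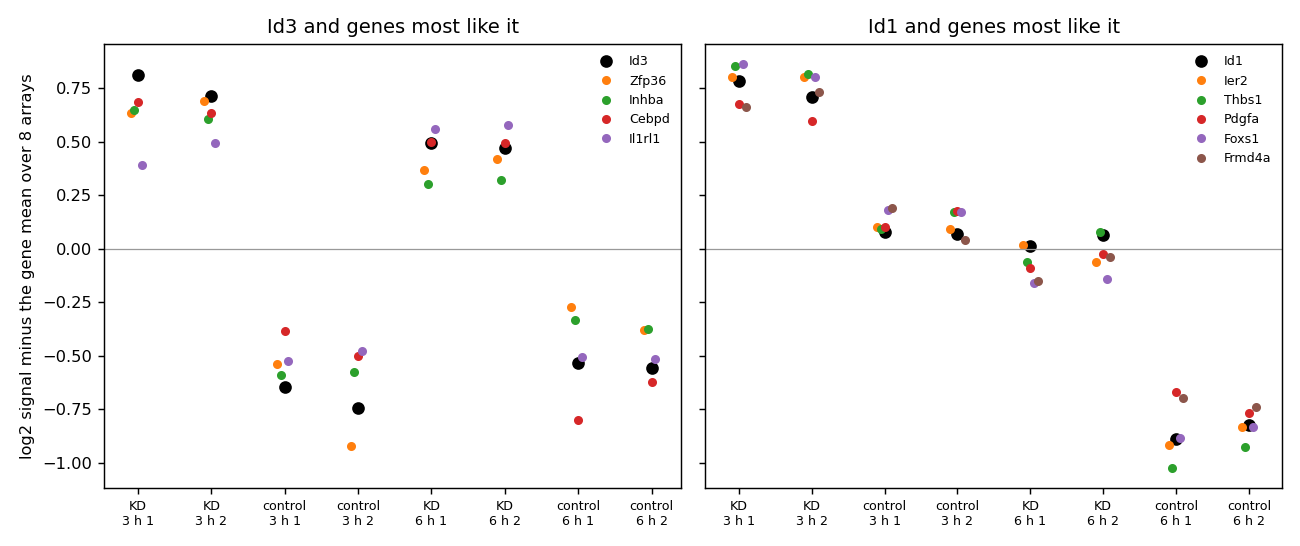
Log2 signal minus the gene's mean over the 8 arrays (y axis) for Id3 with 4 of the 5 genes most like it and for Id1 with the 5 genes most like it, array by array (x axis, group and replicate, KD left of control at each time). Black dots are Id3 or Id1. In the Id3 panel the 4 KD arrays lie above 0 and the 4 control arrays below it, and in the Id1 panel the KD 3 h arrays are highest and the control 6 h arrays lowest.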

How the data were processed

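Expression in 3T3-L1 cells was read from 8 one-colour Agilent arrays, with 2 in each of 4 groups defined by the labels. Per the labels' protocols, 0.1 ug RNA was labelled with Cy3. The authors' deposited scanner output holds for each spot a processed signal, a background-subtracted intensity on a linear scale, per the file headers. The submitters' processing notes name Agilent Feature Extraction 10.7.3.1. A deposited value table holds log2 values that differed from log2 of the processed signal by 1 constant per array (correlation 1.00), not centred per gene, with column medians of -4.23 to -3.95. It served as an alternative.

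Outlier spots by the scanner's own marks (163 to 319 per array) were dropped, no spot was saturated, and log2 processed signals had the array's 75th percentile (470 to 614) subtracted. Of 55681 probes, 27229 were named by RefSeq accession and 20 by symbol or synonym (names of GRCm38.p6), and 28432 stayed unnamed. Testing required that both arrays of 1 group or more were well above background. The brightest tested probe represented a gene, which left 25806 features, 13793 of them named. limma 3.58.1 in R 4.3.3 (lmFit, eBayes; 4 residual and 1.74 prior degrees of freedom) fitted 4 group means, with Benjamini-Hochberg adjustment over all features. The fit was tested on simulated data. Named genes were all members, every called gene of a pathway list, up to 3 further genes per list with the smallest p in the average, and the 5 genes most like Id3 and Id1, of which 1 gene is not reported here. Alternatives were scaling by array medians, none or quantiles, normexp on median spot and background intensity (offset 50), no filter on dim probes, a mean over probes, array weights, masked bright patches, the deposited table, a replicate block, the arrays of one time alone and leaving out each array. Plots used matplotlib 3.10.9 with pandas 2.3.3 and numpy 2.4.6 under Python 3.11.15. The members and lists were chosen with earlier results of these data known.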

Additional observations from a re-analysis of the deposited data

How the results depend on the processing

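All members called for KD against control kept their direction under all alternatives run, 19 at each time and 18 for the average. Averaged over both times Id3 and Smad7 passed in 18 of 18, Id1 in 17, Smad9 in 13 and Id4 in 10. At 6 h Id1 and Id3 passed in 16 of 19, Smad7 in 15, Id4 in 8 and Smad9 in 3. At 3 h Id3 passed in 9 of 19 and Id1 in 6. Counts of calls moved more. At 3 h, 64 features passed, against 25 with array medians, 118 with normexp, 308 with array weights, and 0 with no scaling, with no filter on dim probes, with the replicate block or with the 3 h arrays alone, where 3542 had an unadjusted p under 0.05. Members called were 2, against 1 with array medians, 4 with array weights and 0 under the last 4 settings. At 6 h, 573 passed (392 higher, 181 lower), against 1018 with array medians (916 higher, 102 lower), 87 with no scaling, 18 with no filter, 191 with array weights, 213 with the replicate block and 0 with the 6 h arrays alone, where 3034 had an unadjusted p under 0.05. Members called were 5, against 3 with array weights, 3 with the replicate block, and 0 with no scaling, no filter or the 6 h arrays alone. In the average, 790 passed, against 1215 with array medians (1106 higher, 109 lower), 145 with no scaling, 74 with no filter and 505 with the replicate block, and members called were 5, against 2 with no scaling and 3 with no filter. For the difference of effects, 0 passed, against 6 with no scaling and 1 with quantiles. Over time, 10353 (KD) and 10253 (control) passed, against 5503 and 5738 with no scaling, where 2 members passed with KD supernatant in place of 4. Leaving out 1 array gave 0 to 36 features and 0 to 1 member at 3 h, 129 to 1958 and 2 to 4 at 6 h, 105 to 1997 and 3 to 5 in the average, and 0 to 295 features for the difference of effects. For 6 h against 3 h with KD supernatant it gave 6725 to 11947 features. Scaling by array medians moved the median of all features to 0.18 at 6 h, 0.12 in the average, -0.20 over time with KD and -0.26 with control supernatant. Reversals were found for differences that were not called. Under array medians Bmpr1a turned to 0.0039 at 3 h, 0.15 at 6 h and 0.077 in the average, Gdf5 to 0.0086 in the average, Smad6 and Bmp4 to 0.0030 and 0.041 in the difference of effects, Smad6 to -0.0024 over time with KD supernatant, and Id3, Smad6 and Bmp4 to -0.044, -0.0054 and -0.028 over time with control supernatant. With no scaling Bmpr1a turned to 0.017 at 6 h, Smad6 and Bmp4 to 0.00014 and 0.038 in the difference of effects, and Id2 to 0.060 over time with KD supernatant. With quantiles Bmp4 and Bmpr1a turned to 0.078 and -0.0076 in the difference of effects, and Gdf5 and Bmp1 to 0.034 and -0.0090 in the average. With normexp Smad9 turned to -0.12 in the difference of effects and Bmp4 to -0.22 over time with KD and -0.075 with control supernatant. Leaving out 1 array gave -0.10 to 0.024 for Bmpr1a at 6 h, -0.014 to 0.063 for Bmp1, -0.11 to 0.15 for Bmp8a and -0.26 to 0.0065 for Gdf5 in the average, -0.60 to 0.46 for Bmp4, -0.028 to 0.099 for Bmpr1a, -0.011 to 0.28 for Id2 and -0.10 to 0.19 for Smad9 in the difference of effects, -0.43 to 0.62 for Bmp4 and -0.25 to 0.039 for Id2 over time with KD supernatant, and -0.029 to 0.36 for Bmp4 over time with control supernatant. The cause of these changes was not tested. Deviations of same-numbered arrays correlated at -0.046 to 0.087 between groups. With 2 arrays per group this cannot show whether same-numbered arrays share a preparation. Of the 5 genes most like Id3, 3 to 5 stayed under other scalings and backgrounds, and of those like Id1, 3 to 5, an alternative chosen after seeing the data. Genes near background, such as Smad9, Bmp4 and Bambi, are the least precise.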
